A study of Homo sapiens with 8 samples.

Results

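A375P melanoma cells in which PGC1α was silenced by either of 2 hairpins were compared with cells carrying the scrambled hairpin shScr, and with no other control. The comparison holds 6 of the series' 8 arrays: 2 for shScr, 2 for hairpin 65 and 2 for hairpin 66. The remaining 2 arrays, of the control hairpin shGFP, enter no test unless it is named as such, and their signals are given beside the results. Of the 11963 genes with a probe set of their own, all were tested, each through its brightest probe set by the mean over the 8 arrays.

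A375P is an established human melanoma cell line. Every group, shGFP included, was a stable line made with lentivirus, selected in puromycin for 48 h and harvested 48 h after selection. The groups therefore share infection and selection and differ by the hairpin alone, as far as the labels say. The labels do not say whether a line was a clone or whether the 2 arrays of a hairpin came from separate cultures. The p-values below measure the spread between these arrays, which may be technical. The control arm is 1 hairpin, so an effect of the shScr hairpin itself and an effect of losing PGC1α cannot be told apart in this comparison.

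PPARGC1A is the gene of PGC1α, a coactivator of transcription. The protein has no DNA-binding domain of its own and acts through partners such as the estrogen-related receptors, the nuclear respiratory factors and the PPAR receptors to raise genes of mitochondrial respiration and fatty acid oxidation. In melanoma it is expressed at high level in a subset of tumours, where the melanocyte factor MITF is known to drive its transcription.

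The targeted gene was low in every knockdown array. PPARGC1A had signals of 570 and 551 in the shScr arrays, of 126 and 144 with hairpin 65, and of 114 and 115 with hairpin 66. The arms did not overlap, and the shGFP arrays, at 560 and 543, lay with shScr. The level in the knockdown arm was 22.12% of that in shScr, a fall of 4.52-fold (log2 -2.18, SE 0.10, limma adjusted p = 1.61e-05). Permuting the arm labels over the 6 arrays (exact, two-sided, with the smaller tail doubled) gave p = 0.133. That is the smallest this form of the test can give here.

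The cells carried several marks of their lineage. MITF (4655 to 7583 over the 8 arrays), SOX10 (3454 to 4288) and TYR (2842 to 3948) were bright on every array, while MLANA (19.0 to 47.0) was dim. TYRP1 was dim in shScr and the knockdown arrays. Markers of epithelium (EPCAM, 14.0 to 22.2, and CDH1, 15.3 to 19.1) and of blood (PTPRC, 17.3 to 22.0) were near the lowest signals. The epithelial marker ESRP1 (112 to 402) and the fibroblast markers FAP (270 to 555) and THY1 (201 to 293) were higher. The median signal of an array ranged from 137 to 142. Among the array's own quality controls, the log2 difference between the 3′ and 5′ ACTB probe sets was 2.32 and 2.12 in shScr and 2.41 to 2.65 in the knockdown arrays. The arms did not overlap in it (difference 0.31, exact two-sided permutation p = 0.133). The same difference for GAPDH was 0.14 to 0.16 in shScr and 0.16 to 0.21 in the knockdown arrays. The part of this difference in the results was not tested beyond a fit with the ACTB value as a covariate, which is given below.

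Against shScr, 2290 genes (19.1% of those tested) passed the threshold of limma's adjusted p under 0.05. Of these, 1291 (10.8%) were higher and 999 (8.35%) were lower in the knockdown. A change of at least 1.5-fold was seen among the called genes for 341 rises (2.85%) and 143 falls (1.2%), and one of at least 2-fold for 109 rises (0.911%) and 32 falls (0.267%). All 4 knockdown arrays lay on the same side of both shScr arrays for 4955 genes (41.4%), above them for 2527 (21.1%) and below them for 2428 (20.3%). The median shScr signal was 222 over all genes, 439 over the genes that rose and 743 over those that fell. The count leaned on each control array: 1122 genes were called without the first shScr array and 989 without the second, and 1056 and 953 of the 2290 kept their call and direction. The control array that remains there is assumed to vary like the knockdown arrays. With the ACTB difference as a covariate 434 genes were called, 418 of them from the 2290. Of 283 called members of the gene lists below, 208 lost their call with this covariate. The arms do not overlap in the ACTB value, so the covariate is tied to the knockdown and the fit is less precise. A lost call there can go with a like estimate or a smaller one. UQCRC1 stood at log2 -0.43 with the covariate, beside -0.45 without it. CELF2 stood at -0.21, beside -0.57. Without a hairpin, 1300 genes (65 left out) and 1360 (66 left out) were called.

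**Figure D1:**
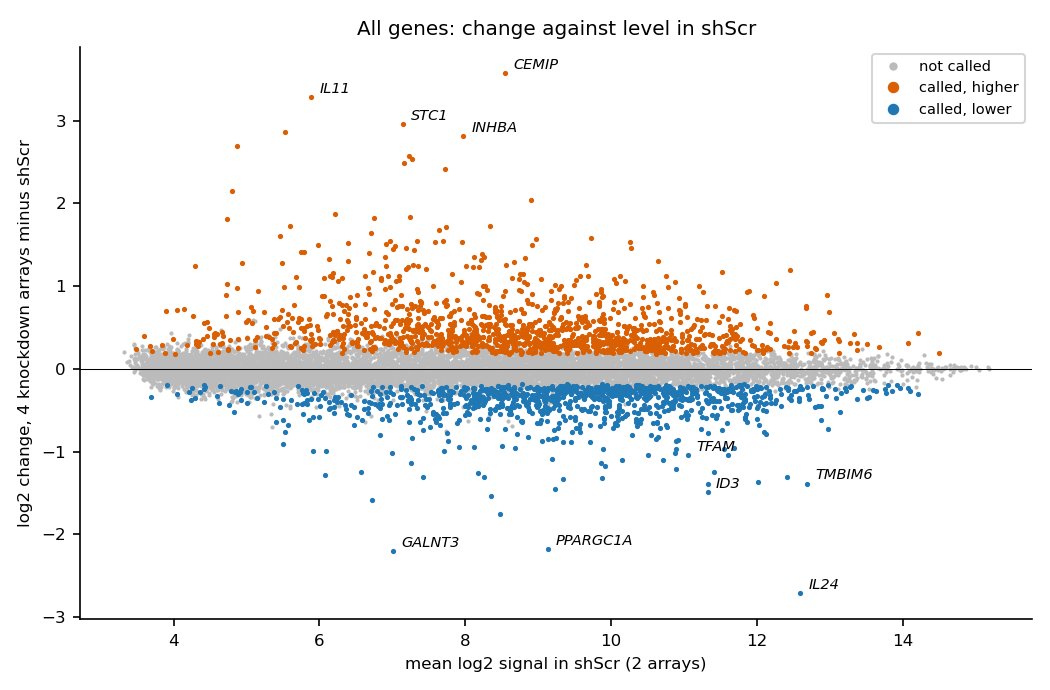
Each point is a gene, with its mean log2 signal in the 2 shScr arrays on the x axis and its log2 change, 4 knockdown arrays minus 2 shScr arrays, on the y axis. The largest rises reach 3.57 (CEMIP) and the largest falls -2.71 (IL24). PPARGC1A, the targeted gene, lies at -2.18.

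Both hairpins were also set against shScr one at a time. Hairpin 65 gave 1538 called genes (12.9%), 950 higher (7.94%) and 588 lower (4.92%). Hairpin 66 gave 1633 (13.7%), 921 higher (7.7%) and 712 lower (5.95%). Both comparisons share the same shScr arrays. Leaving out any single array of a comparison lowered these counts to between 651 and 868 for hairpin 65 and to between 610 and 804 for hairpin 66. Between the hairpins themselves, a contrast that uses no control array, limma called 0 genes; 800 genes (6.69%) had an unadjusted p under 0.05, and the smallest adjusted p was 0.704. Over the 2290 called genes the median absolute difference between hairpins was 0.06 on the log2 scale, beside a median absolute change of 0.37. The spread in the fit holds the gap between hairpins, so the call itself favours genes with a small gap and a large change. These medians are therefore no measure of how well the hairpins agree. The widest gap among the called genes was in BMP2, a ligand of the bone morphogenetic protein branch. BMP2 had signals of 24.0 and 29.3 in shScr, 42.9 and 45.2 with hairpin 65, and 63.9 and 69.1 with hairpin 66. Its rise (log2 1.03, adjusted p = 0.0124) was lost without the first shScr array.

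The genes with the smallest p between the hairpins were EPHB6, SYT2, USP2 and DRICH1, none of them called. For SYT2, a synaptic vesicle calcium sensor, neither array of hairpin 65 was above 79.2, those of hairpin 66 were at 106 and 119, and shScr (97.7 and 95.4) lay between them. EPHB6, an ephrin receptor without kinase activity, had 34.8 and 33.2 with hairpin 65 and 48.8 and 46.7 with hairpin 66. USP2, a deubiquitinase, stood at 37.2 and 37.3 against 49.2 and 48.3. A lack of overlap between hairpins comes with the choice by p, and its share over all genes was not counted. Hairpin 65 was the lower in SYT2, EPHB6 and USP2. DRICH1 had the reverse order, with 84.0 and 83.5 for hairpin 65 and 63.0 and 59.8 for hairpin 66.

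The 12 largest rises and 12 largest falls below were taken among called genes whose arms did not overlap, so that separation comes with the choice. Arms did not overlap for 41.4% of all genes. The largest rise was in CEMIP, which takes part in breaking down hyaluronan. Its signals were 378 and 371 in shScr, 4194 and 4283 with hairpin 65, and 4685 and 4700 with hairpin 66. The arms were far apart, and the shGFP arrays were lower still, at 89.6 and 98.6. CEMIP rose 11.9-fold (log2 3.57, SE 0.07, limma adjusted p = 6.64e-07).

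IL11, a cytokine that signals through gp130, rose from 53.8 and 65.5 in shScr to 596, 616, 587 and 516 in the knockdown arrays (9.73-fold, log2 3.28, SE 0.10, adjusted p = 2.77e-06). Its shGFP signals of 33.9 and 34.0 lay below shScr. INHBA encodes the subunit of activin A, a ligand of the TGF-beta family. It stood at 264 and 239 in shScr and at 1743, 1706, 1684 and 1909 in the knockdown arrays (log2 2.81, adjusted p = 1.86e-06). Again no arrays overlapped and shGFP, at 163 and 162, was lower than shScr.

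For a few of these rises shGFP lay between the arms. STC1, a secreted glycoprotein hormone, had 157 and 128 in shScr, 263 and 369 in shGFP, and 1070 to 1149 in the 4 knockdown arrays. IGFBP5, a binding protein of insulin-like growth factors, had 49.3 and 43.1 in shScr, 79.3 and 94.7 in shGFP, and 276 to 402 in the knockdown. In both genes every knockdown array was above every shGFP array, and the rises against shScr were 7.79-fold and 7.24-fold (adjusted p = 2.13e-06 and 2.18e-05). CORO2B, a coronin that binds actin, showed the same order, with 28.5 and 29.9, 32.5 and 52.1, and 178 to 204.

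The rest of the 12 largest rises were KCNMA1, OLFML3, SFRP1, CHRDL1, SYT1 and IGFBP3, with log2 changes between 2.04 and 2.57. SFRP1, a secreted antagonist of Wnt ligands, went from 144 and 142 to between 721 and 847. CHRDL1, a secreted antagonist of BMP ligands, went from 210 and 212 to between 1038 and 1250. KCNMA1, a calcium-activated potassium channel, depends on the probe set read: its 3 probe sets gave log2 changes between 0.0022 and 2.57. Their mean passed the test at 1.62, and the probe set left without s_at and x_at suffixes did not (adjusted p = 0.995). Other genes with unlike probe sets were IGFBP5 (5 probe sets, 0.09 to 2.86), IL11 (0.61 to 3.28), INHBA (0.79 to 2.81) and STC1 (1.51 to 2.96), each higher on every probe set. Of genes described below, the probe sets ran from -0.60 to 0.08 for TIMM17A, from -0.54 to 0.11 for DICER1, from 0.13 to 0.76 for LEF1, from 0.15 to 1.08 for ADAM19 and from -0.02 to 0.81 for TFPI.

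**Figure D2:**
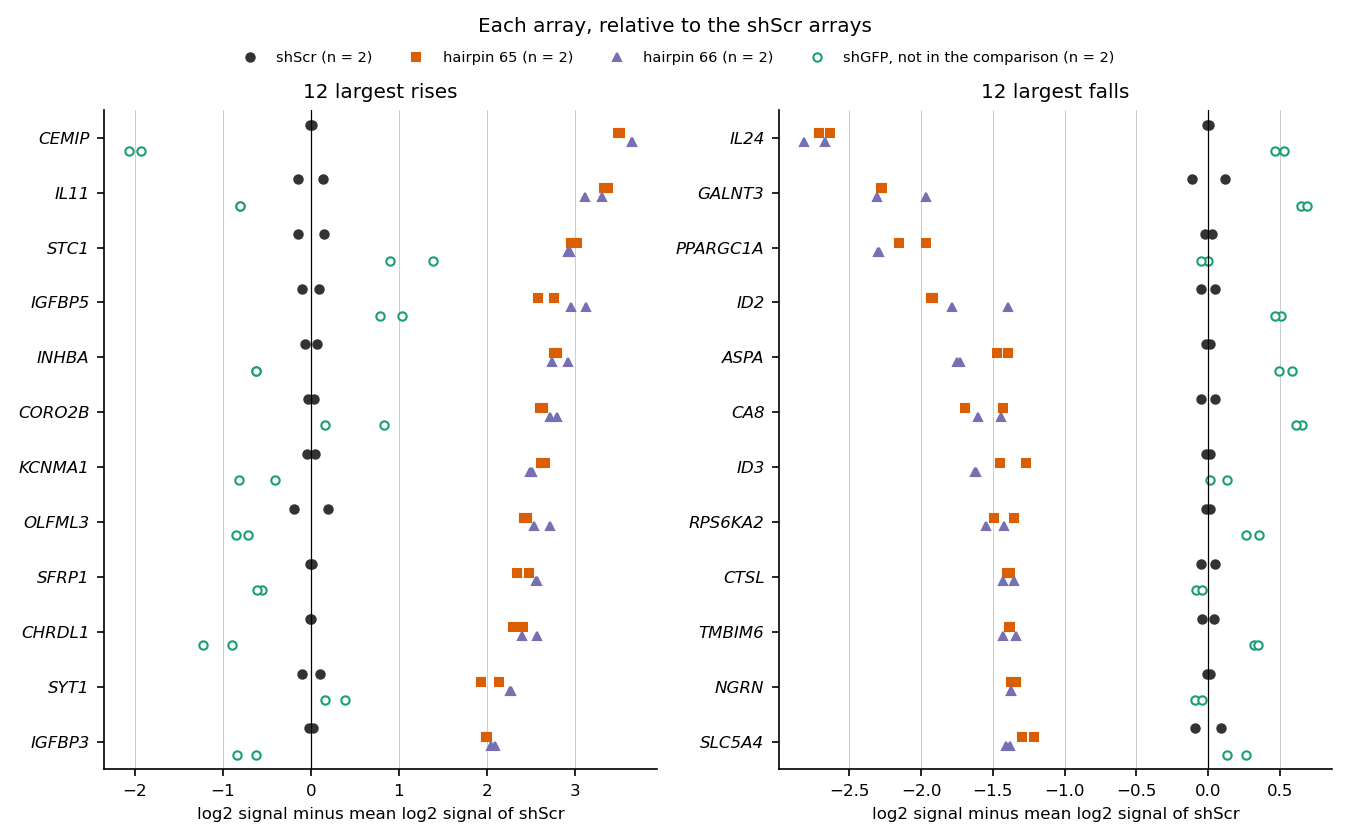
Each row is a gene, and each point an array, plotted as log2 signal minus the mean log2 signal of the shScr arrays, for the 12 largest rises (left) and the 12 largest falls (right). In these 24 genes the 4 knockdown arrays (squares and triangles) lie apart from both shScr arrays (black), which was a condition of the choice. They also lie apart from both shGFP arrays (open circles), a separation that was not counted over all genes. The open circles lie left of shScr for CEMIP, IL11 and INHBA and between the arms for STC1 and IGFBP5.

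The largest fall was in IL24, a cytokine of the IL-10 family first described in differentiating melanoma cells. Its signals were 6143 and 6221 in shScr and 994, 944, 879 and 972 in the knockdown arrays, with shGFP higher than shScr at 8933 and 8519. No knockdown array came near a control array (6.53-fold lower, log2 -2.71, SE 0.07, adjusted p = 1.86e-06). GALNT3, which starts O-linked glycan chains, stood at 120 and 140 in shScr and at 26.2 to 33.2 in the knockdown. It fell by 2.21 on the log2 scale, while its other probe set changed by -0.10.

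ID2 and ID3 were the next large group. They are inhibitors that bind E proteins and keep them from DNA, and are classical targets of BMP signalling. ID2 had 368 and 343 in shScr, and 93.0, 94.2, 135 and 103 in the knockdown arrays (log2 -1.76, SE 0.15, adjusted p = 0.000209). ID3 had 2595 and 2540, and 1064, 940, 832 and 837 (log2 -1.49, adjusted p = 9.03e-05). Neither gene's arms overlapped, and in both genes the shGFP arrays were at or above the higher end of shScr, apart from 1 shGFP array of ID3 at 2589. ID1 was lower as well (1801 and 1947 against 1304 to 1489, log2 -0.40, adjusted p = 0.00726), although its call was lost without the second shScr array and with the ACTB covariate (adjusted p = 0.32). ID4 had a log2 change of 0.14 (adjusted p = 0.123). Of the 7 ID and E protein genes, 3 fell and 0 rose, beside 8.35% and 10.8% of all genes.

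The remaining large falls had varied roles. CTSL, a lysosomal protease, went from 2482 and 2661 to between 953 and 1007. TMBIM6, an inhibitor of cell death in the endoplasmic reticulum, went from 6776 and 6397 to between 2443 and 2598, and its other probe set changed by -0.49. NGRN, which takes part in mitochondrial ribosome assembly, went from 4114 and 4171 to between 1595 and 1640. ASPA, CA8, RPS6KA2 and SLC5A4 completed the 12, at log2 changes of -1.58, -1.54, -1.45 and -1.32.

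The gene lists were chosen with earlier results of these data known. They hold several of the largest changes, such as CEMIP, INHBA and IL11, and their counts are no test of a program. Each count is to be read beside all genes, of which 10.8% rose and 8.35% fell. A lack of overlap between the arms is to be read beside the 41.4% of all genes that showed it. With the ACTB covariate 271 of all genes rose and 163 fell, and the counts over all genes also shrank without a shScr array, as given above. Partners of PGC1α were examined next, since coactivation needs them. Of 17 measured genes of the PGC1 family and its nuclear receptors, 2 rose and 3 fell, PPARGC1A among them (median log2 -0.05, beside -0.01 over all genes). ESRRA, the estrogen-related receptor α and itself a known target of PGC1α, fell from 1079 and 1104 to 743, 781, 666 and 663 (log2 -0.62, SE 0.08, adjusted p = 0.00189). RXRA, the shared partner of many nuclear receptors, fell from 196 and 204 to between 122 and 142. NRIP1, a corepressor that opposes PGC1α on shared receptors, rose from 639 and 597 to between 1018 and 1183 (log2 0.79, adjusted p = 0.000416). PPARG, a receptor known for its part in fat cells, rose from 86.6 and 75.7 to between 125 and 147. NRF1 and GABPA, the nuclear respiratory factors, had log2 changes of -0.05 and -0.04 (adjusted p = 0.816 and 0.836). With the ACTB covariate the calls of ESRRA, RXRA and PPARG were lost (adjusted p = 0.0833, 0.112 and 0.115). ESRRA, RXRA, PPARG, and further list members below that are not among the 2 smallest p-values of their list, were picked after their values were seen.

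Genes of the mitochondrion fell in many small steps. The union of 7 lists of mitochondrial genes held 191 measured genes. Of these, 74 fell (38.7%, beside 8.35% of all genes) and 3 rose (beside 10.8%). A negative log2 change was seen in 166, beside 6170 of all 11963 genes. The median was -0.18, beside -0.01 over all genes. The mitochondrial genes and all genes were not matched for signal level. Of the 74 falls, 69 were under 1.5-fold. Without the first shScr array 26 of the 191 genes fell, without the second 25, and without 1 knockdown array between 54 and 71. With the ACTB covariate 8 fell. The 20 falls among complexes II to V described below became 3 and 4 without the first and the second shScr array and 1 with the covariate.

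TFAM was the largest fall of the group that copies and transcribes mitochondrial DNA. It packages mitochondrial DNA and starts its transcription, and is a textbook target of PGC1α. Its signals were 2135 and 2113 in shScr and 971, 1126, 1053 and 989 in the knockdown, with shGFP at 2045 and 2061. The fall was close to 2-fold with no overlap (log2 -1.04, SE 0.07, adjusted p = 9.03e-05), and its 3 probe sets gave -1.10 to -1.02. LRPPRC, which stabilises mitochondrial messenger RNAs, fell from 2652 and 2618 to between 1962 and 2125 (adjusted p = 0.00331, and 0.103 with the ACTB covariate). In this list of 17 genes 7 fell and 1 rose, while 3 and 2 fell without the first and the second shScr array.

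The respiratory chain showed falls and no rise. Of 28 measured genes of complex I, the NADH dehydrogenase, 7 fell and 0 rose (median -0.15). NDUFA5 fell the most, from 3222 and 2985 to 1479, 1678, 1568 and 1329 (log2 -1.04, adjusted p = 0.00032), while its other probe set changed by 0.04. NDUFA8 fell from 3410 and 3477 to between 2408 and 2673. Without the first and the second shScr array 2 and 3 complex I genes fell, and 4 without the first array of hairpin 65. Of 36 genes of complexes II to V and cytochrome c, 20 fell and 0 rose (median -0.23). The core subunits of complex III, UQCRC2 and UQCRC1, fell by 0.49 and 0.45 on the log2 scale (adjusted p = 0.000858 and 0.0013). UQCRC2 went from 3314 and 3109 to between 2237 and 2324, and no knockdown array overlapped shScr. With the ACTB covariate NDUFA8 and UQCRC1 lost their calls (adjusted p = 0.173 and 0.0883), and NDUFA5 and UQCRC2 kept theirs (0.00468 and 0.0499).

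Of 17 genes of the TCA cycle and pyruvate dehydrogenase, 8 fell and 1 rose (median -0.24, the lowest of the 33 lists). IDH3A, the catalytic subunit of the NAD-dependent isocitrate dehydrogenase, fell from 1893 and 1908 to 1077, 1116, 1042 and 918 (log2 -0.88, SE 0.08, adjusted p = 0.000387). Its shGFP signals, 1524 and 1519, lay between the arms. OGDH, of the 2-oxoglutarate dehydrogenase complex, fell from 632 and 619 to between 378 and 428. CS, citrate synthase, fell from 4469 and 4480 to between 3260 and 3464. PDHA1, of pyruvate dehydrogenase, fell from 3782 and 3851 to between 2589 and 2919. The 1 rise was not called without each shScr array in turn or without the second array of hairpin 65. IDH2, the NADP-dependent enzyme, had a log2 change of 0.06 and was not called. Without the first and the second shScr array 5 and 4 genes fell. OGDH, CS and PDHA1 lost their calls with the ACTB covariate (adjusted p = 0.0513, 0.0574 and 0.146).

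In fatty acid oxidation 6 of 19 measured genes fell and 0 rose (median -0.16). ECI1, which isomerises unsaturated fatty acids for oxidation, fell from 958 and 961 to between 595 and 661. ETFDH passes electrons from acyl-CoA dehydrogenases to the respiratory chain. It fell from 283 and 277 to between 197 and 211 (log2 -0.46, adjusted p = 0.00131). Both calls were lost with the ACTB covariate (adjusted p = 0.0686 and 0.0707), and 3 of the 19 fell without each shScr array in turn.

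The machinery that builds mitochondria was lower too. Of 46 measured genes of the mitochondrial ribosome, 14 fell and 0 rose (median -0.15), with 5 and 6 falls without the first and the second shScr array. MRPL34 fell from 4479 and 4437 to between 2970 and 3296, and MRPL35 from 3414 and 3361 to between 2449 and 2554. Among 28 genes of import and proteases, 12 fell and 1 rose (median -0.18), with 5 and 3 falls without the first and the second shScr array. TIMM17A, of the inner membrane translocase, fell from 7310 and 6996 to between 4994 and 5390 (adjusted p = 0.002). TIMM44, which ties the import motor to that translocase, fell from 564 and 554 to between 362 and 425. AFG3L2, a protease of the inner membrane, fell from 956 and 999 to between 644 and 736. TIMM17A and TIMM44 kept their calls with the ACTB covariate (adjusted p = 0.0271 and 0.0321), and MRPL34, MRPL35 and AFG3L2 lost theirs (0.0731, 0.0505 and 0.111).

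**Figure D3:**
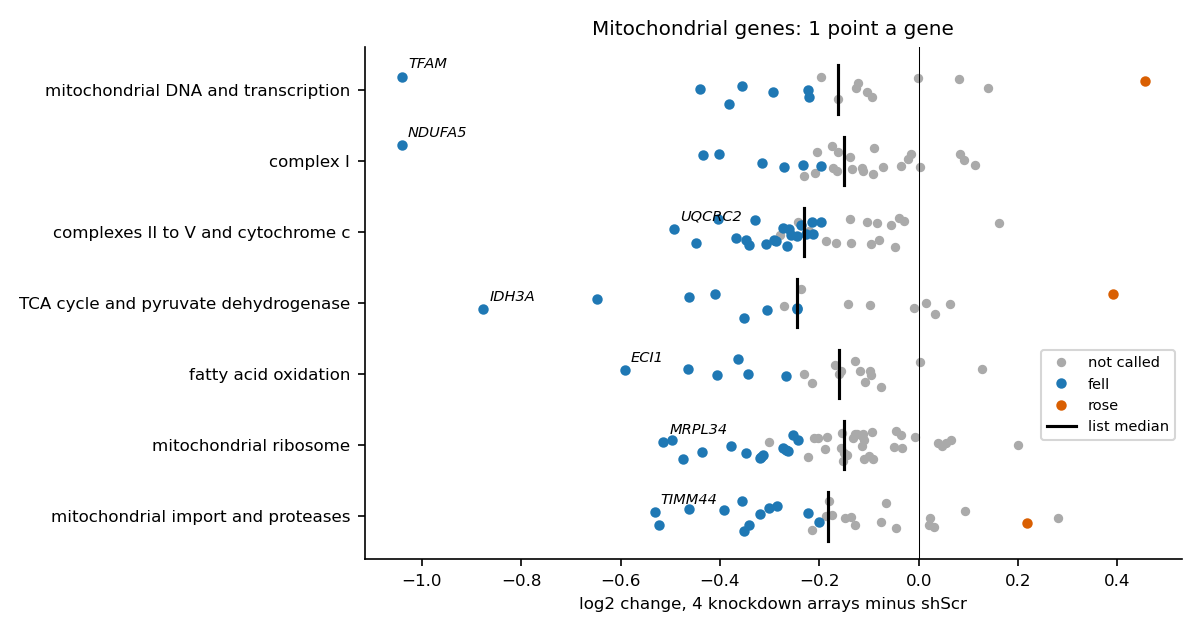
Each point is a gene of 1 of 7 mitochondrial lists, and the x axis is its log2 change, 4 knockdown arrays minus 2 shScr arrays; the vertical bar is the list's median and the height within a row is arbitrary. The 7 medians lie between -0.24 and -0.15. TFAM and NDUFA5, both at -1.04, stand farthest left.

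Promoters of the mitochondrial genes that fell were searched for AAGGTCA on both strands, the core of the element bound by estrogen-related receptors. RefSeq promoter windows (GRCh38.p14, 250 bases before to 50 after the start) were found for 61 of the 74 genes, and 6 (9.84%) held a match. The share was 6.48% (7 of 108) for members of the same lists that did not fall, 2.56% (245 of 9563) for all genes tested that had a window, and 3.97% (1083 of 27305) for all promoters of the table. Among all genes that fell it was 3.45% and among all that rose 2.2%. A match is a stretch of letters and not a measured binding site. Shown here, because they join a match before the start site to a measured fall, are 4 of the 6, each 5′ to 3′ in the direction of the gene, with the match or its reverse complement in capitals.
MRPL34, chr19:17292380-17292426, plus strand: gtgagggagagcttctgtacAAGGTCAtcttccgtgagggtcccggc
NDUFA5, chr7:123601758-123601804, minus strand: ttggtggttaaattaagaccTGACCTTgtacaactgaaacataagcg
NDUFS7, chr19:1383716-1383762, plus strand: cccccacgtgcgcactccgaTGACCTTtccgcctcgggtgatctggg
TRAP1, chr16:3717695-3717741, minus strand: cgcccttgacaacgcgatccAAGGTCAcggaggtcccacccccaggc

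The matches shown begin at most 197 bases before the start. Genes on chromosome 8 were not shown. SYT2, described above and not called (log2 -0.04, limma adjusted p = 0.911), also held a match before its start. TFAM, ESRRA and PPARGC1A gave no stretch to show, for want of a window or of a match before the start. Of the 4 genes shown, NDUFA5 and MRPL34 had the larger falls (log2 -1.04 and -0.51). NDUFS7, a core subunit of complex I, changed by -0.27 (adjusted p = 0.0276), and TRAP1, a mitochondrial chaperone of the HSP90 family, by -0.28 (adjusted p = 0.0191). Both calls were lost without each shScr array in turn, that of NDUFS7 also without the first array of hairpin 65, and both with the ACTB covariate (adjusted p = 0.543 and 0.398).

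Genes of heme and iron-sulphur clusters were mixed, with 5 of 19 lower and 1 higher (median -0.07); 3 were lower without any single array but the second of hairpin 65, and 4 without that. HMOX1, which breaks heme down, had 247 and 380 in shScr, 142 and 112 with hairpin 65, and 123 and 124 with hairpin 66. The shScr arrays were far apart but stayed above the knockdown arrays (log2 -1.30, SE 0.17, adjusted p = 0.00163, and 0.12 with the ACTB covariate). GLRX5, a glutaredoxin of iron-sulphur cluster assembly, fell from 2929 and 2934 to between 1703 and 1814. SLC25A37, the iron importer mitoferrin, rose from 269 and 263 to between 432 and 455 (both adjusted p = 0.000109). In oxidant defence 4 of 23 rose and 5 fell (median -0.02, with the other sign under 3 alternatives). TXN2, the mitochondrial thioredoxin, fell from 2789 and 2781 to between 1752 and 1929. UCP2, an uncoupling carrier of the inner membrane, rose from 561 and 537 to between 753 and 837, with shGFP below shScr at 331 and 401. Over the mean of its probe sets UCP2 changed by 0.22 and was not called (adjusted p = 0.0685). TXN2 and UCP2 lost their calls with the ACTB covariate (adjusted p = 0.0574 and 0.0993). Without each shScr array in turn 1 gene of oxidant defence fell, and 3 without each array of hairpin 66.

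Most measured genes of the list that respond to low oxygen rose, beside 10.8% of all genes. Of 19 measured, 13 rose and 1 fell (median 0.55, the highest of the 33 lists), and 10 rose without each shScr array in turn. NDRG1, a gene induced by hypoxia and stress, went from 798 and 819 to 1940, 1807, 1929 and 2025 (2.38-fold, log2 1.25, SE 0.06, adjusted p = 2.18e-05). P4HA2, a collagen prolyl hydroxylase subunit, went from 607 and 594 to between 1146 and 1280. VEGFA, the vascular growth factor, went from 1432 and 1357 to between 2377 and 2696. In these genes no array of the arms overlapped, as was so for 41.4% of all genes. The smaller rises included KDM3A, BNIP3 and ANGPTL4 (log2 0.79, 0.76 and 1.21). HIF1A, whose protein is controlled mainly by degradation, had a log2 change of 0.08 (adjusted p = 0.478). With the ACTB covariate 7 of the 19 rose. Against shGFP 8 of the 19 rose. DDIT4, a stress-induced inhibitor of mTOR, rose against shScr (1637 and 1883 against 2629 to 3236) and was not called against shGFP (2246 and 2514).

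In glycolysis, 4 of 20 genes rose and 1 fell (median 0.04), and 2 rose without each shScr array in turn. SLC2A1, the glucose transporter GLUT1, rose from 390 and 385 to between 511 and 551. ENO2, the neuronal enolase, fell from 715 and 679 to 431, 408, 330 and 358 (log2 -0.88, adjusted p = 0.00146). The arms of each gene were apart, and both calls were lost with the ACTB covariate (adjusted p = 0.0727 and 0.0919). That of SLC2A1 was also lost without s_at and x_at probe sets (adjusted p = 0.139).

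Melanocyte genes were split. Of 23 measured, 8 fell and 4 rose, beside 8.35% and 10.8% of all genes (median -0.09, with the other sign under 1 alternative). MITF, the master factor of the lineage, fell from 7481 and 7583 to 5013, 5232, 4655 and 4773 (log2 -0.62, SE 0.06, adjusted p = 0.000606). PMEL, the melanosome fibril protein, fell from 993 and 951 to between 364 and 496 (log2 -1.17, adjusted p = 0.000585). CAPN3, a protease that is a known MITF target, fell from 5448 and 5458 to between 2062 and 2396 (log2 -1.31, adjusted p = 4.46e-05). RAB38, of melanosome transport, and TFAP2A, a lineage transcription factor, fell by 0.60 and 0.65 on the log2 scale. TYR, the rate-limiting enzyme of pigment synthesis, had a log2 change of 0.00 (adjusted p = 0.987) and SOX10 one of 0.15 (adjusted p = 0.131). LEF1, a nuclear partner of β-catenin, rose from 2546 and 2543 to between 4137 and 4527 (adjusted p = 0.000178). TYRP1, at 51.7 and 59.4 in shScr and 38.6 to 46.0 in the knockdown, was lower (log2 -0.42, adjusted p = 0.0161), and the call was lost without the second shScr array and with the ACTB covariate (0.233). In shGFP TYRP1 stood at 125 and 158. MITF and PMEL lost their calls with the ACTB covariate (adjusted p = 0.0505 and 0.0574). Without the first and the second shScr array 7 and 5 genes fell, and 1 and 2 rose. The rises were 2 also without the second array of hairpin 65 and without each of hairpin 66.

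Of 19 genes known from the invasive state of melanoma, 8 rose, 0 fell and 11 were not called (median 0.17). Of all genes 10.8% rose and 8.35% fell. Against shGFP alone 9 rose and 4 fell, and with the ACTB covariate 4 rose and 1 fell. NT5E, the ectoenzyme CD73, went from 318 and 331 to 1040, 1086, 1181 and 992 (log2 1.73, SE 0.08, adjusted p = 1.58e-05). NRP1, a co-receptor of semaphorins and VEGF, went from 204 and 223 to between 641 and 746 (log2 1.71, adjusted p = 1.61e-05). Its 3 probe sets ran from 0.13 to 1.71, with 0.86 for their mean. AXL, a receptor tyrosine kinase, went from 906 and 950 to between 1743 and 1877, and ZEB1, a repressor of epithelial genes, from 662 and 654 to between 1144 and 1273. The arms of these 4 genes did not overlap, and 6 genes of the list rose without each shScr array in turn. ESRP1, a splicing regulator counted here among 13 epithelial markers, was the only one of them called. It fell from 279 and 298 to between 112 and 141 (log2 -1.26, adjusted p = 0.000146).

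More members of the integrin and matrix lists rose than fell, beside 10.8% and 8.35% of all genes, in lists chosen with earlier results known. Of 17 integrins, 11 rose and 0 fell (median 0.53), with 8 and 6 rises without the first and the second shScr array. ITGA5, the α chain of a fibronectin receptor, went from 423 and 391 to 986, 983, 994 and 1011 (log2 1.29, SE 0.06, adjusted p = 1.45e-05). ITGB5 went from 1567 and 1631 to between 3709 and 4315. ITGA10, a collagen receptor chain, went from 102 and 114 to 304, 358, 447 and 435, the steepest of the list (log2 1.83, adjusted p = 0.000215). ITGAV, the α chain that pairs with several β chains, had a log2 change of -0.07 (adjusted p = 0.562). With the ACTB covariate 5 of the 17 integrins rose. In the extracellular matrix list 12 of 29 rose and 1 fell (median 0.19), with 9 and 10 rises without the first and the second shScr array. Apart from CEMIP, TGFBI, a matrix protein induced by TGF-beta, had the smallest p, with 2894 and 2962 against 6394 to 6995 (log2 1.17, adjusted p = 2.26e-05). COL4A1, of basement membrane collagen, rose from 1156 and 1175 to between 2319 and 2581. Over the matrix list 7 genes rose with the ACTB covariate. FN1, fibronectin, was the member that fell (log2 -0.27, adjusted p = 0.0252), a call lost without each shScr array in turn, and its 6 probe sets ran from -0.30 to 0.22.

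Of 22 matrix proteases and inhibitors, 13 rose and 2 fell (median 0.34), and 8 rose without each shScr array in turn. PLAUR, the urokinase receptor, went from 501 and 464 to 1398, 1407, 1309 and 1350 (2.83-fold, SE 0.06 on the log2 scale, adjusted p = 9.88e-06). Its 3 probe sets ran from 0.26 to 1.62, and the value without s_at and x_at probe sets was 0.26 (adjusted p = 0.0295). ADAM19, a membrane metalloprotease, went from 113 and 117 to between 216 and 261, while shGFP was at 69.8 and 55.8. TIMP3, an inhibitor held in the matrix, fell from 4879 and 4953 to between 3665 and 3973 (log2 -0.38, adjusted p = 0.00343, and 0.109 with the ACTB covariate). In shGFP it was lower than in the knockdown, at 2922 and 3064. Over the list 3 genes rose with the ACTB covariate.

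Further ligands, receptors and inhibitors of the TGF-beta family rose beside INHBA and CHRDL1. Of 31 measured, 14 rose and 1 fell (median 0.19), with 10 and 11 rises without the first and the second shScr array. FST, follistatin, which binds activins, rose from 100 and 97.4 to between 191 and 249. TGFBR2, the ligand-binding receptor, rose from 576 and 582 to between 1103 and 1123, with shGFP at 738 and 726. SMAD3, which carries the activin and TGF-beta signal to the nucleus, rose from 420 and 431 to between 880 and 922 (log2 1.08, SE 0.05, adjusted p = 2.18e-05). Its 4 probe sets ran from -0.22 to 1.08. SMAD7, the feedback inhibitor, rose from 139 and 135 to between 226 and 245. LTBP1, which holds latent TGF-beta in the matrix, rose from 148 and 151 to between 323 and 366. All 5 kept their calls with the ACTB covariate (adjusted p between 0.00449 and 0.0223), while over the list the rises became 8 in place of 14.

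In the Wnt list 10 of 21 rose and 1 fell (median 0.29), with 6 and 5 rises without the first and the second shScr array. With the ACTB covariate 4 of the 21 rose. The rises against shScr included secreted inhibitors, SFRP1 and DKK3, the receptor FZD1 and the nuclear factor LEF1. DKK3 went from 66.7 and 66.6 to between 131 and 150 (log2 1.09, adjusted p = 5.61e-05), but its 5 probe sets ran from -0.13 to 1.09. Their mean was 0.28 (adjusted p = 0.0241), and the value without s_at and x_at probe sets was 0.076 (adjusted p = 0.47). FZD1 went from 245 and 246 to between 472 and 551. DKK1, another secreted inhibitor, was the member that fell: 42.4 and 48.3 in shScr, 27.1 and 18.8 with hairpin 65, and 24.0 and 27.6 with hairpin 66 (log2 -0.91, adjusted p = 0.00576). These are low signals, and the call was lost without the second shScr array and with the ACTB covariate (adjusted p = 0.311). In shGFP DKK1 stood at 383 and 346, far above every array of the comparison.

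**Figure D4:**
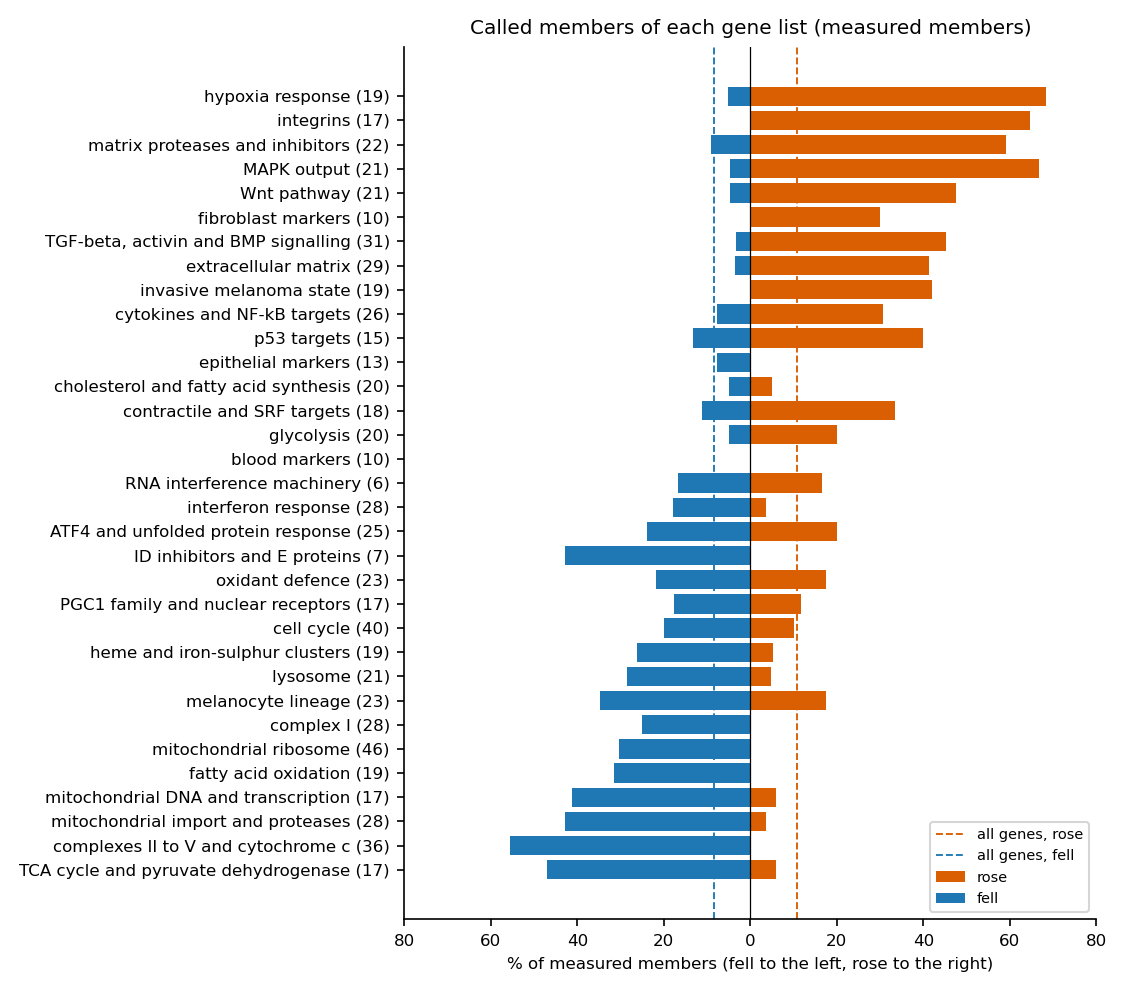
Bars give the share of each list's measured members (number in brackets) that rose (right) or fell (left) at limma's adjusted p under 0.05, in the order of the list's median log2 change; dashed lines are the shares of all genes (10.8% rose, 8.35% fell). The hypoxia list, with 13 of 19 risen, is at the top, and the list of the TCA cycle, with 8 of 17 fallen, is at the bottom.

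Among 26 cytokines and NF-kB targets, 8 rose and 2 fell, beside 10.8% and 8.35% of all genes (median 0.14). With the ACTB covariate 4 rose and 1 fell. Besides IL11 and IL24, LIF, which like IL11 signals through gp130, rose from 1223 and 1258 to between 3370 and 3485 (log2 1.46, adjusted p = 6.04e-06). CCL20, a chemokine, rose from 158 and 167 to between 457 and 506. PTGS2, the inducible cyclooxygenase, rose from 56.7 and 41.4 to between 153 and 174. CXCL8, the chemokine IL-8, rose from 111 and 129 to 300, 348, 332 and 247 (log2 1.35, adjusted p = 0.000548, and 0.0611 with the ACTB covariate). In each of these the knockdown arrays lay above both controls.

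Of 21 genes that report MAPK pathway output, 14 rose and 1 fell (median 0.31), with 9 and 7 rises without the first and the second shScr array. With the ACTB covariate 5 of the 21 rose and 1 fell. FOSB, an AP-1 subunit, went from 77.6 and 75.2 to between 150 and 166. IER3, an immediate early gene, went from 5557 and 5636 to between 12229 and 13454. SPRY4, a feedback inhibitor of the pathway, went from 1885 and 1876 to between 3637 and 4051, and EGR1 from 653 and 659 to between 1146 and 1224. MYC was the member that fell, from 1251 and 1257 to between 693 and 741 (log2 -0.79, adjusted p = 9.03e-05). The arms of these 5 genes did not overlap, as was so for 41.4% of all genes.

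Of 40 cell cycle genes, 4 rose and 8 fell (median -0.05, with the other sign under 1 alternative), and 0 rose without each shScr array in turn, while 2 and 1 fell. Leaving out knockdown arrays one by one gave 1 to 3 rises and 2 to 6 falls. The 4 rises of 40 are near the share of all genes that rose (10.8%), while 8.35% of all genes fell. CDC25A, the phosphatase that activates cyclin-dependent kinases, fell from 971 and 946 to between 580 and 627 (log2 -0.66, adjusted p = 0.00025). CDK2 fell from 3480 and 3589 to between 2696 and 2892, a call lost without the second shScr array (adjusted p = 0.0714). In the p53 list 6 of 15 rose and 2 fell (median 0.13), with 1 and 4 rises without the first and the second shScr array. FAS, the death receptor, rose from 305 and 295 to between 413 and 508. MDM2, the ligase of p53, was lower, at 141 and 153 against 117 to 119 (log2 -0.32), and that call was lost without the second shScr array (adjusted p = 0.093) and turned to 0.0054 over the mean of its probe sets. With the ACTB covariate the calls of CDK2, FAS and MDM2 were lost (adjusted p = 0.218, 0.15 and 0.284).

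In the interferon list 1 of 28 rose and 5 fell, beside 10.8% and 8.35% of all genes (median 0.01, with the other sign under 9 alternatives). Without the first and the second shScr array 1 and 2 of its members fell, and 2 to 3 without single knockdown arrays. OAS1, an antiviral synthetase, fell from 116 and 110 to between 82.9 and 85.5. IFI44 rose from 142 and 155 to between 204 and 217, with shGFP at 184 and 218. It changed by -0.080 without s_at and x_at probe sets, and the mean of its probe sets was not called (adjusted p = 0.102). Among 25 genes downstream of ATF4 or of unfolded proteins there were 5 rises and 6 falls (median -0.01, with the other sign under 3 alternatives). Without the first and the second shScr array 2 and 3 rose, and 7 and 2 fell. Without single knockdown arrays 3 to 4 rose and 3 to 5 fell. VLDLR, a lipoprotein receptor, rose from 66.1 and 60.8 to 216, 188, 164 and 152, and SLC3A2, the shared chain of amino acid transporters, fell from 1449 and 1357 to between 987 and 1017. In cholesterol and fatty acid synthesis 1 of 20 rose (INSIG1, log2 0.60) and 1 fell (SCD, -0.50), and both calls were lost with the ACTB covariate (adjusted p = 0.146 and 0.09). The mean of the 4 probe sets of SCD, which ran from -0.50 to 0.18, changed by -0.029 (adjusted p = 0.756).

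Of 21 lysosomal genes 1 rose and 6 fell (median -0.09), with 4 and 3 falls without the first and the second shScr array. CTSB, a lysosomal protease like CTSL, was the member that rose, from 3101 and 2989 to between 3872 and 4162 (adjusted p = 0.00267, and 0.0764 with the ACTB covariate). Contractile genes and SRF targets gave 6 rises and 2 falls in 18 (median 0.04), with 3 and 1 rises without the first and the second shScr array. TAGLN, a smooth muscle actin-binding protein, fell from 44.8 and 47.5 to between 24.2 and 31.4 (adjusted p = 0.00191, and 0.0639 with the ACTB covariate), and shGFP, at 30.9 and 35.9, lay close to the knockdown. In the RNA interference machinery, which processes hairpins, DICER1 fell from 399 and 393 to between 257 and 301 (adjusted p = 0.00223). AGO3 was higher (log2 0.27, adjusted p = 0.0205), a call lost without each shScr array in turn (0.12 and 0.131). Of 6 measured genes of that machinery these were the ones called.

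Among markers of other cell types, 0 of 10 blood genes were called, and 3 of 10 fibroblast genes rose (median 0.27), with 1 rise without each shScr array in turn. FAP, a surface protease, rose from 306 and 270 to between 530 and 555, with shGFP at 486 and 505. THY1 rose from 201 and 203 to between 246 and 276, a call lost without each shScr array in turn (adjusted p = 0.0567 and 0.0536), and shGFP was higher than the knockdown at 293 and 291. Invasive melanoma cells express several of these genes, and the part of other cells in these signals was not tested.

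Each hairpin alone, with 2 arrays in place of 4, gave its own counts within the lists. Of the 36 genes of complexes II to V, 8 fell with hairpin 65 and 16 with hairpin 66, and of the 46 ribosome genes 7 and 13. Over all genes 4.92% fell with hairpin 65 and 5.95% with hairpin 66, and 7.94% and 7.7% rose. Of the 19 hypoxia genes 12 and 11 rose, of the 17 integrins 8 and 8, and of the 21 MAPK genes 11 and 12. The differences between these counts were not tested, and no gene was called between the hairpins. Against shGFP alone, a reference that shares the knockdown arrays, 12.7% of all genes fell and 13.2% rose. There 24 of the 36 genes of complexes II to V and 12 of the 28 of complex I fell. So did 12 of the 19 of fatty acid oxidation and 13 of the 23 melanocyte genes. Among the 17 integrins 8 rose, and among the 21 MAPK genes 14. Other lists had fewer calls than against shScr. Falls were 10 in place of 12 among 28 genes of import and proteases. They were 5 in place of 7 among 17 genes of mitochondrial DNA and transcription. Rises were 8 in place of 13 among the 19 hypoxia genes.

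The place of shGFP was read gene by gene, as a description. Against shScr, 939 genes (7.85%) were called in shGFP, 526 higher (4.4%) and 413 lower (3.45%). Of the 1291 rises, 1053 (81.6%) had both shGFP arrays on the shScr side of all 4 knockdown arrays, 61 had both past all 4, and 177 overlapped. Of the 999 falls the numbers were 871 (87.2%), 29 and 99. Among changes of at least 1.5-fold, 317 of 341 rises (93.0%) and 139 of 143 falls (97.2%) had shGFP on the shScr side. These genes were called through the same 4 knockdown arrays, a choice that favours such a position, and more so for larger changes. The share over all genes was not counted. Using both controls as the reference gave 2659 called genes (22.2%), 1384 higher (11.6%) and 1275 lower (10.7%). The reference of shGFP alone gave 3099 (25.9%), 1581 higher (13.2%) and 1518 lower (12.7%).

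For 108 rises and 52 falls the shGFP mean lay past the knockdown mean, so that their direction depends on the control. IL7R, the interleukin 7 receptor, had 86.1 and 73.7 in shScr, 152 to 185 in the knockdown, and 202 and 226 in shGFP. It rose against shScr (log2 1.10, adjusted p = 0.000304) and stood at -0.32 against shGFP. SEMA3C, a secreted guidance protein, had 512 and 499, 835 to 894, and 1058 and 975 (0.76 against shScr, -0.24 against shGFP). In both genes the 3 groups did not overlap. TFPI, an inhibitor of coagulation, overlapped between the knockdown (118 to 129) and shGFP (116 and 137), and its shScr signals were 63.4 and 78.7. TXK, a kinase of the Tec family, gave 0.77 against shScr and -0.34 against shGFP.

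Among the falls of this kind, GCH1, the first enzyme of tetrahydrobiopterin synthesis, had 220 and 169 in shScr, 117 to 139 in the knockdown, and 90.0 and 86.2 in shGFP (log2 -0.61 against shScr, 0.52 against shGFP). ALDH5A1, a mitochondrial enzyme of GABA breakdown, had 256 and 276, 176 to 194, and 154 and 149. HCP5, a non-coding RNA of the HLA region, gave -0.61 against shScr and 0.15 against shGFP. CELF2, an RNA-binding protein, had a call that any of 4 single arrays ended: both shScr arrays (adjusted p = 0.151 and 0.18), the first of hairpin 65 (0.0704) and the first of hairpin 66 (0.0868). The calls of TXK without the second shScr array (adjusted p = 0.0726) and of GCH1 without the first (0.0797) were lost too. With the ACTB covariate TXK, HCP5, GCH1, CELF2 and ALDH5A1 were not called (adjusted p between 0.0604 and 0.725).

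**Figure D5:**
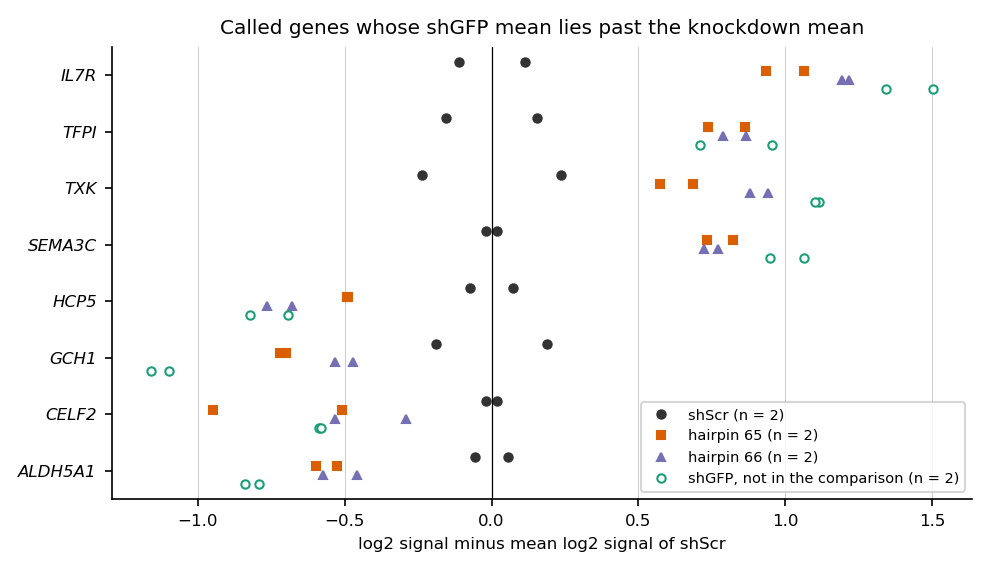
Each row is a gene called against shScr whose shGFP mean lies past the knockdown mean, and each point is an array, plotted as log2 signal minus the mean log2 signal of the shScr arrays. For IL7R, TXK and SEMA3C both shGFP arrays (open circles) lie to the right of all 4 knockdown arrays, and for GCH1 and ALDH5A1 to the left. For TFPI, HCP5 and CELF2 they overlap the knockdown arrays.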

How the data were processed

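RNA from 8 samples of A375P cells was measured on 1-colour Affymetrix arrays. The deposited values are intensities on a linear scale that the authors made with RMA, per the submitters' processing notes; its version and settings are not given in the sources used here. No detection calls were used, so a low signal may be background. log2 was taken, and 11963 genes with a single-symbol probe set (19064 of 22277 probe sets) were kept, unfiltered, by the probe set with the highest mean over all arrays. Differences were tested with limma 3.58.1 in R 4.3.3 (lmFit, eBayes, Benjamini-Hochberg over all genes), in a fit of 4 knockdown against 2 shScr arrays and, per hairpin, in a fit of 3 groups. The fits were tested on simulated data. Folds come from means of log2 values. The small number of arrays limits precision.

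The genes named by rule were PPARGC1A, the called genes with the 12 largest changes in each direction and arms that did not overlap, the 2 called members of each of 33 lists with the smallest p, the 4 rises and 4 falls with shGFP past the knockdown, and the 4 genes with the smallest p between hairpins. The lists, of 778 genes of which 701 were measured, are described by counts and medians, with no set test. The members and the lists were chosen with earlier results of these data known. Promoters came from RefSeq (GRCh38.p14).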

Additional observations from a re-analysis of the deposited data

Results flagged for a closer look

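In GALNT3, the second array of hairpin 66, at a signal of 33.2, stood apart from the other 3 knockdown arrays (26.2 to 26.7). In NGRN, the first array of hairpin 65, at 1640, stood apart from the other 3 (1595 to 1600). Each was picked out because its gap to the nearest of the other knockdown arrays took up most of the range of the 4. Chance picks out about 1 in 20 groups of samples in this way, and both genes stayed far below shScr in all 4 arrays.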

How the results depend on the processing

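PPARGC1A was called lower under every alternative run, with log2 changes from -2.29 to -2.06. The count of called genes, 2290, became 1238 without s_at and x_at probe sets, 1413 after averaging each hairpin's arrays, 1300 without hairpin 65, 1360 without hairpin 66, 434 with the ACTB covariate and 484 at 1.5-fold or more. It was 989 to 1974 with single arrays left out. The count for hairpin 65 (1538) was 2490 with a trended, robust variance and 651 to 868 with arrays left out, and that for hairpin 66 (1633) was 2466 and 610 to 804. Between the hairpins 0 genes were called in all 7 fits. Replicate numbers did not pair the arrays (correlations of deviations 0.022, 0.0022 and -0.107), and a fit with the replicate number as a block called 1920 genes. With hairpin as a random block the correlation was -0.203 and 2977 genes were called. Some named genes turned sign: MDM2 to 0.0054 over the mean of its probe sets, IFI44 to -0.080 without s_at and x_at probe sets, and, against shGFP alone, THY1 to -0.17, IL7R to -0.32, TFPI to -0.017, TXK to -0.34, SEMA3C to -0.24, HCP5 to 0.15, GCH1 to 0.52, CELF2 to 0.013 and ALDH5A1 to 0.28. The ACTB covariate ended the calls of 28 of 83 named genes and of 208 of 283 called list members, and turned no sign among the named genes. Of the 283, 129 stayed called with every array left out in turn. Quantile normalization (51.2% of calls higher, beside 56.4%) and cyclic loess ended no call of a named gene.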

Other observations

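Outside the lists and the largest changes, the arachidonic acid pathway held more than PTGS2. PTGES, the inducible synthase of prostaglandin E2, had mean signals of 105 in shScr, 328 in the knockdown and 76 in shGFP (log2 1.64, limma adjusted p = 6.28e-05). NR4A2, an orphan nuclear receptor that responds to cyclic AMP, had 502, 1493 and 356 (log2 1.57). TMEM158, a gene raised by Ras signalling, had 1231, 3552 and 459 (log2 1.53). CDH19, a cadherin of the neural crest and Schwann lineage, had 248, 722 and 501 (log2 1.54), with shGFP between the arms. All 4 were picked after their values were seen.

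Among the falls outside the mitochondrial lists, the following genes were picked after their values were seen, and no share was counted. PPIF, the cyclophilin of the mitochondrial matrix, had mean signals of 2994 in shScr, 1530 in the knockdown and 2764 in shGFP (log2 -0.97, limma adjusted p = 5.29e-05). FASTKD1, a mitochondrial RNA-binding protein, had 1903, 978 and 1758 (log2 -0.96). GOT1, the cytosolic transaminase of the malate-aspartate shuttle, had 1687, 789 and 1440 (log2 -1.10). PEX19, which inserts peroxisomal membrane proteins, had 930, 422 and 951 (log2 -1.14). NEFL, a neurofilament chain, had 1460, 711 and 3746 (log2 -1.04), so that shGFP stood farther from the knockdown than shScr did. The 3 probe sets of NEFL ran from -1.04 to -0.16.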
